A study of Sus scrofa with 120 samples.

Results

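The collagen genes of pig chondrocytes were followed in 2 experiments on mechanically stimulated cartilage cells. The members were the genes whose symbol in the deposited count table reads COL, a number, A and a number, with repeated lines of an identifier removed. There were 39 such genes among 31907 gene identifiers: 6 of the cartilage type, 7 other fibrillar, 12 network-forming or microfibrillar, 6 fibril-associated, and 8 membrane, multiplexin and other collagens. A further 5 collagen genes, COL4A1, COL7A1, COL9A2, COL20A1 and COL24A1, have no symbol in the table and were not members. Counts from 120 libraries in 30 groups of 4 were used.

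All cells were primary chondrocytes from pig femoral cartilage, cast in 2% agarose. Cells given no siRNA were labelled wild type or non-transfected. The TRPV4 experiment (48 libraries) had 6 conditions. Free-swelling constructs received DMSO as the control, 1 nM GSK101 (an agonist of the calcium channel TRPV4), GSK205 (a TRPV4 antagonist) or 1 ng/mL of the inflammatory cytokine IL-1. Loaded constructs received 3 h of cyclic unconfined compression of 10% peak to peak at 1 Hz, with or without GSK205. The PIEZO1 experiment (72 libraries) had 3 transfection states: non-transfected cells (NT), cells given a non-targeting control siRNA (siNTC), and cells given siRNAs against the stretch-activated channel PIEZO1 (siPIEZO1). In each state constructs received DMSO vehicle, the PIEZO1 agonist Yoda1 or 1 quasi-static compression to 80% deformation. Constructs were taken 3 h and 9 h after the onset of stimulation. Nothing in the labels ties the 4 replicates to different pigs. Each p therefore measures the spread between these libraries, which may be technical. GSK101, GSK205 and Yoda1 are small molecules, and the labels name no deletion or transgene in any group.

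Collagens are triple helices of alpha chains, each chain made by a gene of its own. In cartilage, type II collagen, a trimer of the COL2A1 chain, forms the fibrils. Type XI collagen (COL11A1, COL11A2) lies within them and limits their width, and type IX (COL9A1 to COL9A3) decorates their surface. Type VI microfibrils (COL6A1, COL6A2, COL6A3) form the pericellular coat around each chondrocyte. Types I and III are the fibrillar collagens of fibrous tissue and of chondrocytes that lose their cartilage character, and type X (COL10A1) marks hypertrophic cells of the growth plate.

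Library totals ran from 20651530 to 80223797 counts in the TRPV4 experiment and from 36807992 to 66240251 in the PIEZO1 experiment. The library kits differed, with ribosomal depletion in the TRPV4 experiment and a low-input SMARTer method from 10 ng of RNA in the PIEZO1 experiment. The 2 experiments were therefore fitted apart, and no level was tested across them. Below, CPM means counts per 1000000 of a library total, after scaling of that total with TMM factors, edgeR's normalization for composition; sums of marker genes are given as CPM of the plain total. Values after ± are standard deviations of the 4 libraries for CPM and shares, and standard errors for log2 fold changes. A gene is called where the Benjamini-Hochberg adjusted p of edgeR's quasi-likelihood test, over all genes tested, was under 0.05. Gene length is not in CPM, so levels are compared between groups and not between genes. The summed level of 12 chondrocyte markers was 21982 to 41513 CPM in the TRPV4 libraries and 10349 to 34797 in the PIEZO1 libraries. These sums rest on different genes. COMP averaged 2640.6 CPM across DMSO controls of 3 h and 21906 across NT vehicle controls of 3 h. ACAN went the other way, with means of 20942 and 1308.9, as did all other markers of the list but CHAD. Overlapping sums therefore do not mean similar marker levels in the TRPV4 and PIEZO1 libraries. Lists for other cells of a joint summed to 176 to 299.6 and 581 to 1959.7 (9 fibroblast and synovium genes), 22.6 to 76.1 and 6.17 to 60.0 (8 leukocyte genes), 3.08 to 6.51 and 2.51 to 11.4 (7 endothelial genes), 1051 to 11096 and 868 to 3638 (7 bone genes) and 1.26 to 7.74 and 0.764 to 9.74 (5 adipocyte genes). Since these are bulk samples, fewer cells of a type and less RNA per cell cannot be told apart. SPP1 carried most of the bone sum among 3 h controls, with means of 1401 CPM for DMSO and 1067 for NT vehicle. Every other bone gene averaged at most 3.36 (DMP1, DMSO) or 6.69 (SP7, NT vehicle) CPM. CD14 likewise carried most of the leukocyte sum of these controls (25.96 and 12.51 CPM), whereas PTPRC averaged 0.024 and 0.082.

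The 39 collagen genes took a large part of each TRPV4 library and a small part of each PIEZO1 library. In DMSO constructs at 3 h they held 9.71 ± 1.05% of all counts, and COL2A1 alone was 59.7 ± 1.95% of the collagen counts. In NT vehicle constructs at 3 h the share was 1.26 ± 0.0962%, with COL2A1 at 56.4 ± 4.20% of it. Over all libraries the share ran from 5.54% to 11.7% in the TRPV4 experiment and from 0.679% to 1.60% in the PIEZO1 experiment. Because the kit, the cells' handling and the experiment change together, this difference cannot be assigned to any of them. Of the 39 genes, 37 passed the filter on low counts at 3 h and 36 at 9 h in the TRPV4 experiment, and 36 and 35 in the PIEZO1 experiment. COL6A5 passed in no model, COL28A1 and, at 9 h, COL4A3 did not pass in the TRPV4 models, and COL22A1, COL6A6 and, at 9 h, COL4A6 did not pass in the PIEZO1 models.

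Both experiments held COL2A1, COL11A1, COL11A2, COL6A1, COL6A2, COL6A3, COL9A1 and COL9A3. In DMSO at 3 h COL2A1 stood at 55589.8 ± 7075 CPM, COL11A1 at 6092 ± 117, COL11A2 at 8917 ± 848, COL9A1 at 5567 ± 173 and COL6A3 at 5329.6 ± 287. The fibrous-tissue chains COL1A1, COL1A2 and COL3A1 stood at 11.7 ± 1.02, 152 ± 17.1 and 311 ± 21.9 CPM, and COL10A1 at 1.43 ± 0.230. In NT vehicle at 3 h the same genes stood at 7490.1 ± 1129 CPM for COL2A1, 229 ± 46.7 for COL1A1, 409 ± 19.0 for COL1A2, 552 ± 40.5 for COL3A1 and 26.8 ± 1.24 for COL10A1. COL8A1, a short-chain network collagen, stood at 61.2 ± 4.45 CPM with DMSO and, in the other experiment, at 954 ± 117 for NT vehicle. These levels were not tested across the 2 experiments.

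**Figure D1:**
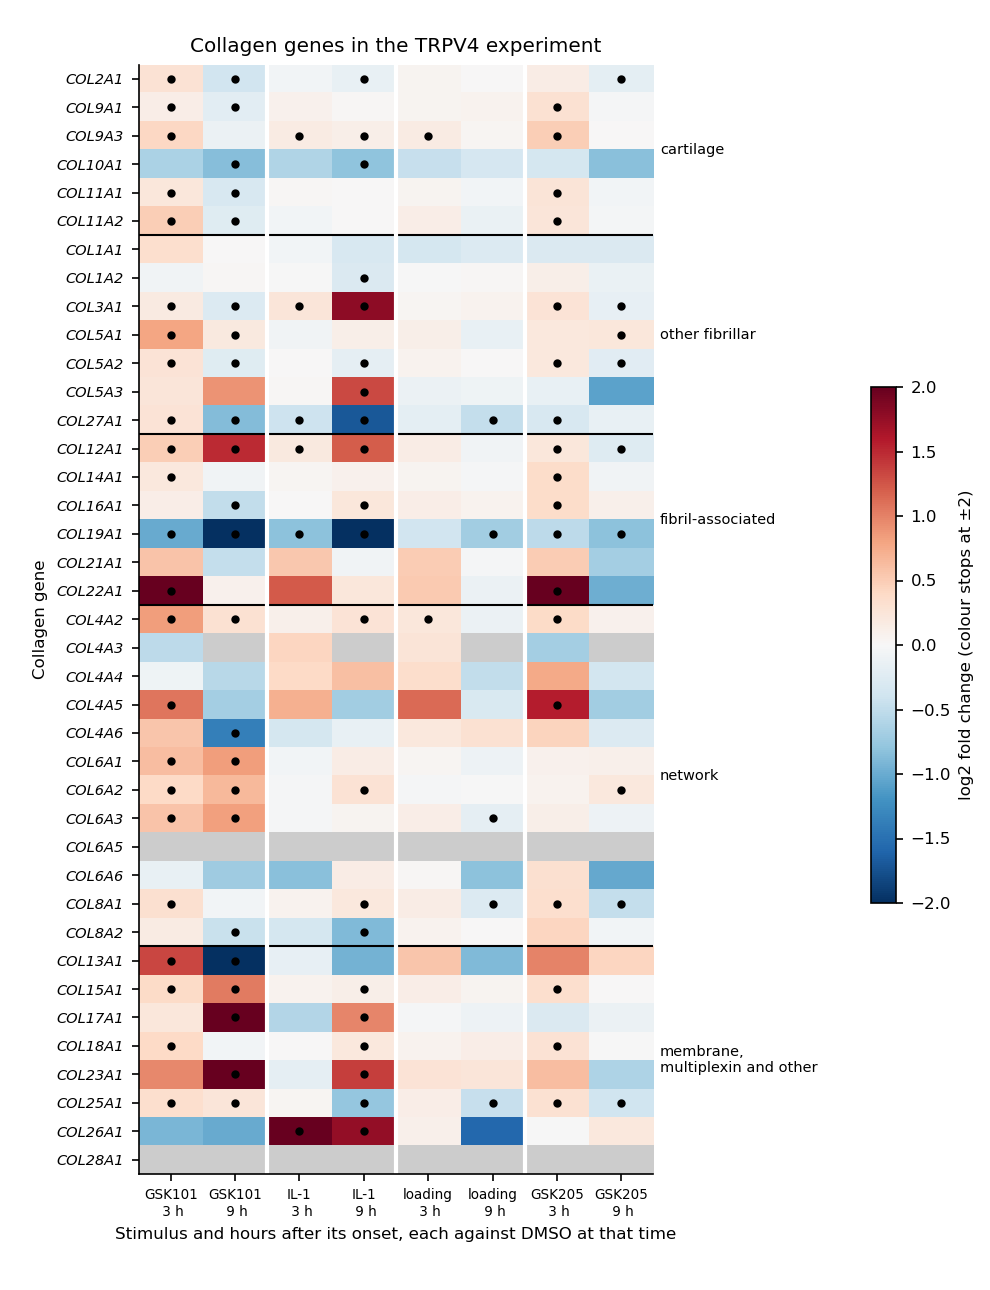
Log2 fold changes of the 39 collagen genes (rows, grouped by family) in the TRPV4 experiment for each stimulus and time against DMSO (columns); dots mark values with an edgeR adjusted p under 0.05 and grey cells were not tested. COL19A1 is lower and called in 7 of the 8 columns (all but loading at 3 h), and the COL2A1 cells of GSK101 have opposite signs at 3 h and 9 h.

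Under TMM the TRPV4 agonist GSK101 raised most collagens by 3 h. By 9 h some were higher and some lower, at shares near those of all genes. At 3 h 22 of the 37 members tested rose and 1 fell. The background over all genes tested was 22.0% higher and 18.0% lower (40.0% called in all). The median log2 fold change was 0.32 over the members and 0.01 over all genes. For the antagonist GSK205 at 3 h, set against the same DMSO libraries, the median over the members was 0.27. By family, 5 of 6 cartilage collagens, 4 of 7 other fibrillar collagens, 6 of 11 network collagens, 3 of 6 fibril-associated collagens and 4 of 7 membrane and multiplexin collagens rose. With library totals in place of TMM the median of all genes moved by -0.16 and 10 members rose and 2 fell. The 4 GSK101 libraries at 3 h held 62677053 to 80223797 counts and the 4 DMSO libraries 20651530 to 29904509, and the part of this gap in depth in the result was not tested.

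COL2A1 (ENSSSCG00000025523, chromosome 5, 78350131 to 78380893 on Sscrofa11.1) encodes the type II chain. Its 4 DMSO libraries at 3 h read 48168, 53869.8, 55142 and 65178 CPM and its 4 GSK101 libraries 63735, 64833, 68450.1 and 72143. The lowest treated library lay below the highest control, so the groups overlapped, and the gene rose by little (log2 fold change 0.30 ± 0.07, edgeR adjusted p = 0.00087). This call was lost with library totals (log2 fold change 0.13). At 9 h the order was the opposite: DMSO read 42516, 43422, 44188 and 46223 CPM and GSK101 33176, 34747, 34866 and 35391. Every treated library was below every control at 9 h (log2 fold change -0.38 ± 0.05, edgeR adjusted p = 2.4e-07), and with library totals the value was -0.71. The change of the response from 3 h to 9 h was itself called (log2 fold change -0.63 ± 0.09, edgeR adjusted p = 9.5e-08). An annotated long non-coding RNA overlaps COL2A1 over 7284 bases, and whether the counting used strand is not given in the sources used here, so reads of the 2 cannot be told apart.

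**Figure D2:**
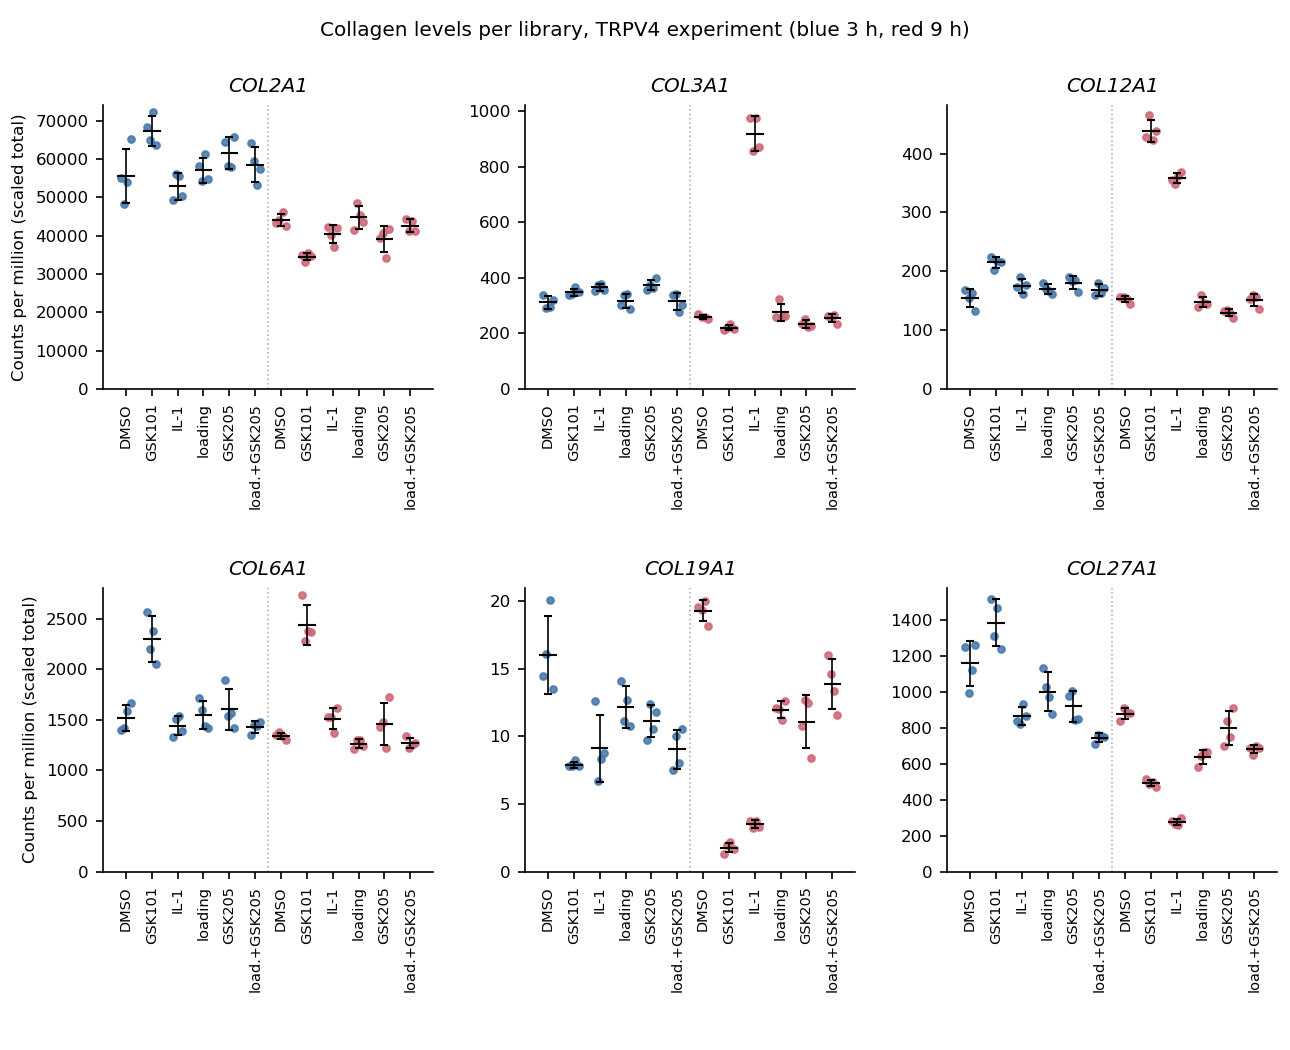
CPM of 6 collagen genes in each library of the TRPV4 experiment (points; lines, group mean and SD; linear axes from 0) for the 6 conditions at 3 h (blue) and 9 h (red). COL19A1 in GSK101 at 9 h lies between 1.31 and 2.15 CPM, below all 4 DMSO libraries.

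At 9 h of GSK101, 10 of 36 members rose and 13 fell, against a background of 29.3% higher and 33.0% lower (62.3% in all). The share of members called, 23 of 36, was near that background. Among the cartilage collagens none of 6 rose and 5 fell (COL2A1, COL9A1, COL10A1, COL11A1 and COL11A2), and 3 of 7 other fibrillar collagens fell. Of the 22 members that rose at 3 h, 8 fell at 9 h (COL2A1, COL3A1, COL5A2, COL9A1, COL11A1, COL11A2, COL13A1 and COL27A1), and 8 rose at both times (COL4A2, COL5A1, COL6A1, COL6A2, COL6A3, COL12A1, COL15A1 and COL25A1). The collagen share of counts was 6.40 ± 0.214% in GSK101 and 8.91 ± 0.358% in DMSO. With library totals the median of all genes moved by -0.33, and 7 members rose and 19 fell. A test of the change of the GSK101 effect between the times called 6 members toward higher and 17 toward lower at 9 h, of 38, over a background of 23.1% higher, 22.8% lower, 45.8% in all. With library totals these were 3 and 21.

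The fibril-associated collagens moved apart. COL19A1 (ENSSSCG00000044472, chromosome 1, 50044394 to 50402256) encodes a minor collagen of basement membrane zones. Its DMSO libraries read 13.5, 14.5, 16.1 and 20.1 CPM at 3 h and its GSK101 libraries 7.77, 7.78, 7.80 and 8.25, without overlap (log2 fold change -1.001 ± 0.14, edgeR adjusted p = 1.3e-06). At 9 h DMSO read 18.2, 19.4, 19.6 and 20.0 and GSK101 1.31, 1.67, 1.96 and 2.15 (log2 fold change -3.46 ± 0.14, edgeR adjusted p = 2.0e-20). The 9 h effect was larger than the 3 h effect in the test of the difference (log2 fold change -2.41 ± 0.21, edgeR adjusted p = 9.5e-14). A long non-coding RNA overlaps the gene's annotated range over 5205 bases. COL12A1 (ENSSSCG00000004484, chromosome 1, 90744409 to 90875127), which links fibrils to neighbouring matrix in tissue under tension, went the other way. Its DMSO libraries read 133, 155, 162 and 168 CPM at 3 h and GSK101 202, 216, 217 and 225. At 9 h DMSO read 145, 153, 155 and 157 and GSK101 424, 428, 438 and 465 (log2 fold change 1.50 ± 0.05, edgeR adjusted p = 1.4e-22), again without overlap. COL16A1, a further fibril-associated collagen, fell at 9 h (log2 fold change -0.49 ± 0.05, edgeR adjusted p = 7.6e-10; -0.81 with library totals).

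The chains COL6A1, COL6A2 and COL6A3 of pericellular type VI collagen rose at both times. COL6A1 went from 1518 ± 128 to 2298 ± 225 CPM at 3 h (log2 fold change 0.62 ± 0.08, edgeR adjusted p = 1.8e-07) and from 1342 ± 30.6 to 2436 ± 201 at 9 h (log2 fold change 0.83 ± 0.07, edgeR adjusted p = 2.0e-12). COL6A3 stood at 4866 ± 161 CPM in DMSO and 8791 ± 146 in GSK101 at 9 h (log2 fold change 0.83 ± 0.05, edgeR adjusted p = 3.5e-15). With library totals the 9 h values were 0.51 for COL6A1 and 0.50 for COL6A3. A protein-coding record under another symbol has exactly the annotated range given for COL6A1. Whether it is the same gene or a separate locus was not settled. If it is separate, the COL6A1 counts may hold its reads. COL4A2, a basement membrane chain, rose at 3 h from 39.8 ± 3.74 to 70.1 ± 5.30 CPM (log2 fold change 0.84 ± 0.07, edgeR adjusted p = 1.2e-10), and COL5A1, a regulator of fibril assembly, from 313 ± 40.2 to 535 ± 41.7 (log2 fold change 0.79 ± 0.08, edgeR adjusted p = 5.7e-09). The multiplexin COL15A1 rose at 9 h from 132 ± 5.96 to 277 ± 12.0 CPM (log2 fold change 1.04 ± 0.04, edgeR adjusted p = 1.5e-19).

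COL27A1 (ENSSSCG00000005487, chromosome 1, 254768576 to 254924893), a fibrillar collagen of cartilage, was called higher at 3 h and lower at 9 h under TMM. At 3 h DMSO read 998, 1125, 1254 and 1264 CPM and GSK101 1241, 1314, 1472 and 1519.7, with overlapping groups. Library totals moved the median of all genes by -0.16 at 3 h, and the 3 h value of COL27A1 under them is not given here. At 9 h DMSO read 840.5, 883, 885 and 913 and GSK101 472, 490.3, 499.9 and 514, with every treated library below every control (log2 fold change -0.86 ± 0.06, edgeR adjusted p = 6.7e-14). The difference between the times was called (log2 fold change -1.09 ± 0.10, edgeR adjusted p = 1.0e-12). Its type XI relative COL11A2 had a change of response of -0.69 ± 0.08 on the log2 scale (edgeR adjusted p = 2.4e-10).

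Some of the largest ratios after GSK101 came from collagens with few counts. COL17A1, a transmembrane collagen of hemidesmosomes, read 0.998, 1.14, 1.14 and 1.58 CPM in DMSO and 4.97, 5.22, 5.83 and 6.04 in GSK101 at 9 h (log2 fold change 2.14 ± 0.24, edgeR adjusted p = 1.9e-09). COL23A1, also a transmembrane collagen, read 0.249, 0.267, 0.312 and 0.355 in DMSO and 0.955, 0.998, 1.05 and 1.82 in GSK101 (log2 fold change 2.00 ± 0.41, edgeR adjusted p = 8.8e-05). Both rose without overlap. The transmembrane COL13A1 had counts of 16, 16, 16 and 38 in DMSO and 0, 2, 6 and 6 in GSK101 at 9 h, or 0.499, 0.568, 0.568 and 0.923 CPM in DMSO and 0, 0.0795, 0.210 and 0.315 in GSK101 (log2 fold change -2.11 ± 0.58, edgeR adjusted p = 0.0022). COL4A6, a basement membrane chain, read 0.530, 0.568, 0.656 and 0.888 CPM in DMSO and 0.191, 0.210, 0.315 and 0.318 in GSK101 at 9 h (log2 fold change -1.37 ± 0.43, edgeR adjusted p = 0.0069). At 3 h the muscle-junction collagen COL22A1 had counts of 1, 2, 2 and 4 in DMSO and 13, 15, 31 and 72 in the deeper GSK101 libraries (log2 fold change 2.47 ± 0.67, edgeR adjusted p = 0.0039).

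Calls on 3 further genes of low level were less stable. COL13A1 at 3 h read 0.0402, 0.416, 0.452 and 0.454 CPM in DMSO and 0.404, 0.889, 1.02 and 1.13 in GSK101 (log2 fold change 1.33 ± 0.52, edgeR adjusted p = 0.041), and the call was lost in 5 of 8 fits that left out 1 library (DMSO replicates 2 or 4, GSK101 replicates 1, 2 or 3), with adjusted p up to 0.14. COL4A5 read 0.0909, 0.174, 0.512 and 0.644 CPM in DMSO and 0.564, 0.771, 0.821 and 0.832 in GSK101 at 3 h (log2 fold change 1.06 ± 0.39, edgeR adjusted p = 0.030), lost in 4 of 8 such fits (DMSO replicates 1 or 3, GSK101 replicates 1 or 4), with adjusted p up to 0.12. COL10A1 went from 1.47 ± 0.352 to 0.817 ± 0.217 CPM at 9 h (log2 fold change -0.85 ± 0.33, edgeR adjusted p = 0.027), lost in 4 of 8 (DMSO replicates 1 or 2, GSK101 replicates 1 or 3), with adjusted p up to 0.084. COL10A1 lies wholly inside the range of NT5DC1, and reads of the 2 cannot be told apart without strand.

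Genes that modify, fold, secrete, trim and cross-link collagen chains were counted as a list. Of 38 such genes tested, 15 rose and 1 fell at 3 h after GSK101 (background 22.0% higher, 18.0% lower, 40.0% in all). At 9 h 18 rose and 9 fell (background 29.3% higher, 33.0% lower, 62.3% in all). With both directions together, the share called was near that of all genes at each time. By direction, rises took a larger share than over all genes and falls a smaller one, which was not tested. The largest rises at 9 h were in the prolyl hydroxylases P3H1 (1.39 ± 0.04), P4HA3 (1.33 ± 0.10) and P3H2 (1.21 ± 0.04) and in CREB3L1 (1.24 ± 0.19), a transcription factor that acts on collagen genes. CREB3L2, its relative that acts on the secretory pathway in cartilage, fell (-1.17 ± 0.06), as did the procollagen N-proteinase ADAMTS2 (-0.71 ± 0.10). Of 8 collagen receptor genes, 2 rose and 5 fell at 9 h, with the collagen-binding kinase DDR2 at -0.96 ± 0.05. Of the 12 chondrocyte markers 2 rose and 6 fell at 9 h under TMM. Their summed level was 27242 ± 967 CPM of the plain total against 35399.9 ± 922 in DMSO. With library totals the median log2 fold change of all genes was itself -0.40, and the sum was not corrected for that shift. The part of the difference in the sum in the collagen results was not tested.

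The cytokine IL-1 changed few collagens by 3 h and most of them by 9 h. At 3 h 4 of 37 members rose and 2 fell (background 18.5% higher, 13.7% lower, 32.2% in all), and all 6 were called in the same direction at 9 h. At 9 h 13 of 36 rose and 8 fell, against 30.6% higher and 34.5% lower over all genes (65.1% in all), so the share of members called, 21 of 36, was not above that of all genes. This count depended on the scaling. With library totals the median of all genes moved by -0.53 at 9 h, and then 2 members rose (COL3A1 and COL12A1) and 25 fell. At 3 h the same scaling moved the median by -0.18, and 1 member rose and 14 fell. The collagen share of counts at 9 h was 5.93 ± 0.305% in IL-1 and 8.91 ± 0.358% in DMSO. The change of the effect between the times was called for 5 members toward higher and 4 toward lower at 9 h (background 18.5% higher, 20.4% lower, 38.8% in all), and with library totals for 3 and 15.

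COL3A1 (ENSSSCG00000016034, chromosome 15, 93556914 to 93595678), the fibrillar type III chain of repair and soft tissue, had the largest rise at 9 h of the members tested. At 3 h DMSO read 292, 293, 322 and 337 CPM and IL-1 352, 357, 373 and 379. At 9 h DMSO read 253, 259, 259 and 269.8 and IL-1 856, 872, 974 and 975 (log2 fold change 1.80 ± 0.06, edgeR adjusted p = 3.9e-22). The 2 groups did not overlap at either time, and with library totals the log2 fold change was 1.26 at 9 h and 0.061 at 3 h, where the call was lost (edgeR adjusted p = 0.51). After GSK101 the same gene read 212, 215, 219.6 and 232 CPM at 9 h, below every control. COL12A1 read 348, 355, 363 and 369 CPM in IL-1 at 9 h (log2 fold change 1.21 ± 0.05, edgeR adjusted p = 2.3e-20), and 0.68 with library totals.

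COL19A1 and COL27A1 had the largest falls at 9 h of the members tested. COL27A1 read 261, 264, 280.2 and 298 CPM in IL-1 at 9 h, all far below the DMSO range of 840.5 to 913 (log2 fold change -1.70 ± 0.06, edgeR adjusted p = 1.1e-21). COL19A1 read 6.73, 8.33, 8.74 and 12.6 CPM at 3 h and 3.24, 3.31, 3.71 and 3.77 at 9 h (log2 fold change -2.49 ± 0.12, edgeR adjusted p = 1.5e-18). Neither overlapped its controls. COL25A1, a transmembrane collagen best known from neurons, read 26.9, 27.6, 27.7 and 30.5 CPM in DMSO and 16.5, 16.6, 16.9 and 17.6 in IL-1 (log2 fold change -0.77 ± 0.07, edgeR adjusted p = 1.4e-11). Under TMM, GSK101 libraries read 32.2, 33.9, 34.9 and 35.2, above every control. Library totals moved the median of all genes by -0.33 for GSK101 at 9 h, and COL25A1 under them is not given here. After IL-1 the network collagen COL8A2 also fell (log2 fold change -0.89 ± 0.17, edgeR adjusted p = 2.8e-05). With library totals the falls were larger for both, at -1.30 for COL25A1 and -1.42 for COL8A2.

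The value for COL2A1 after IL-1 depended on the scaling. At 3 h the difference was -0.06 ± 0.07 on the log2 scale (edgeR adjusted p = 0.55). At 9 h IL-1 libraries read 37094, 40207, 41869 and 42335 CPM, each below the lowest DMSO library (log2 fold change -0.15 ± 0.05, edgeR adjusted p = 0.013). That call was lost without DMSO 9 h replicate 3 or IL-1 9 h replicate 3 (adjusted p up to 0.072), and with DESeq2 or RLE factors, where the value was -0.11. With library totals COL2A1 was called lower at both times, by -0.24 at 3 h (edgeR adjusted p = 0.0034) and -0.68 at 9 h (edgeR adjusted p = 4.0e-13). COL10A1 had a difference of -0.81 ± 0.32, called in the full fit (edgeR adjusted p = 0.027) and lost in 5 of 8 fits without 1 library (DMSO replicates 1 or 2, IL-1 replicates 1, 2 or 4), with adjusted p up to 0.078. COL1A2 fell (log2 fold change -0.30 ± 0.06, edgeR adjusted p = 0.00010). With library totals the log2 fold changes were -1.34 for COL10A1 and -0.83 for COL1A2.

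Collagens near 1 CPM or below rose after IL-1 under TMM. COL26A1, a collagen first described in reproductive tissue, had counts of 2, 5, 8 and 9 in DMSO and 25, 43, 46 and 70 in IL-1 at 3 h, or 0.0805, 0.227, 0.256 and 0.313 CPM in DMSO and 0.930, 0.974, 1.56 and 1.92 in IL-1 (log2 fold change 2.59 ± 0.62, edgeR adjusted p = 0.0015). The 9 h values were 0.0971, 0.213, 0.312 and 0.355 CPM in DMSO and 0.591, 0.817, 0.915 and 0.988 in IL-1 (log2 fold change 1.76 ± 0.59, edgeR adjusted p = 0.011). COL23A1 read 0.525, 0.717, 0.888 and 1.05 CPM and COL17A1 1.92, 2.32, 2.56 and 2.99 in IL-1 at 9 h, above all DMSO libraries. The calls on COL26A1, COL23A1, COL17A1 and the type V chain COL5A3 at 9 h were lost with library totals, where the log2 fold changes were 1.23, 0.85, 0.45 and 0.79.

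Among 38 biosynthesis genes, 10 rose and none fell after 3 h of IL-1 (background 18.5% higher, 13.7% lower, 32.2% in all), and 15 rose and 13 fell at 9 h (background 30.6% higher, 34.5% lower, 65.1% in all). With both directions together, the share called was below that of all genes at 3 h and near it at 9 h. The largest rises at 9 h were in P3H1 (1.63 ± 0.04), the N-proteinase of type II procollagen ADAMTS3 (1.50 ± 0.10), and the C-proteinases TLL1 (1.31 ± 0.32) and BMP1 (0.97 ± 0.06). All 5 cross-linking genes tested fell, led by LOXL4 (-2.33 ± 0.07) and LOXL1 (-0.99 ± 0.17). CREB3L2 (-1.42 ± 0.06) and the receptor DDR2 (-1.88 ± 0.05) fell as well, with 3 receptor genes higher and 4 lower of 8. These list counts were made with TMM scaling alone. Of the 12 chondrocyte markers 2 rose and 6 fell at 9 h under TMM, and their sum was 22851 ± 700.2 CPM of the plain total. With library totals the median log2 fold change of all genes was itself -0.60, and the sum was not corrected for that shift. The part of the sum in the collagen results was not tested.

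Cyclic loading changed few collagens. At 3 h 2 of 37 members were called, both higher (background 7.86% higher, 2.3% lower, 10.2% in all): COL4A2 (log2 fold change 0.23 ± 0.07, edgeR adjusted p = 0.043) and COL9A3 (log2 fold change 0.16 ± 0.05, edgeR adjusted p = 0.048). Each of the 2 calls was lost in 6 of 8 fits that left out 1 library, namely without any of DMSO 3 h replicates 2, 3 and 4 and loading 3 h replicates 1, 2 and 3 (adjusted p up to 0.16 and 0.18). No member was called with RLE factors, with the contrast's groups alone, with protein-coding genes only, with a replicate block or with library totals, and 4 were with DESeq2. At 9 h none rose and 5 of 36 fell (background 12.5% higher, 11.2% lower, 23.7% in all). COL2A1 differed by 0.05 ± 0.07 on the log2 scale at 3 h and 0.00 ± 0.05 at 9 h (edgeR adjusted p = 0.73 and 0.97). The change of the loading effect between the times was called for 4 members, all lower at 9 h: COL25A1, COL8A1, COL4A2 and COL6A3 (background 4.99% higher, 5.1% lower, 10.1% in all). The calls on COL4A2 and COL6A3 were each lost in 8 of 16 fits without 1 library. The count was 2 without DMSO 9 h replicate 2, without loading 3 h replicate 1 and without loading 9 h replicate 1.

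The 5 genes lower after loading at 9 h were of several families. COL19A1 read 11.2, 12.0, 12.1 and 12.6 CPM in loaded constructs, all below the DMSO range of 18.2 to 20.0 (log2 fold change -0.70 ± 0.10, edgeR adjusted p = 1.0e-05). COL27A1 read 581, 642, 664 and 668, also below all controls (log2 fold change -0.48 ± 0.06, edgeR adjusted p = 7.9e-07). COL25A1 read 19.2, 19.9, 20.2 and 23.7, again without overlap (log2 fold change -0.46 ± 0.07, edgeR adjusted p = 6.7e-06). COL8A1 (-0.27 ± 0.06) and COL6A3 (-0.18 ± 0.05) fell by less. COL19A1, COL25A1 and COL27A1 are also the members named above for IL-1, which shares the DMSO controls with loading. Among 38 biosynthesis genes 18 rose and 5 fell at 9 h (background 12.5% higher, 11.2% lower, 23.7% in all), with P4HA3 at 0.34 ± 0.10, the lysyl hydroxylase PLOD2 at 0.27 ± 0.06, CREB3L1 at -0.98 ± 0.20 and ADAMTS3 at -0.51 ± 0.10.

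The TRPV4 antagonist GSK205 by itself changed collagens in free-swelling constructs. At 3 h 16 of 37 members rose and 2 fell (background 14.6% higher and 12.5% lower, 27.1% in all). At 9 h 2 of 36 rose and 7 fell (background 12.1% higher, 9.15% lower, 21.2% in all). With library totals the counts were 10 and 2 at 3 h and 0 and 9 at 9 h. The 3 h counts with library totals were the same for GSK101. Agonist and antagonist share the DMSO controls, and the part of those controls in the 3 h rises was not tested. COL9A3 rose from 4162 ± 294 to 5853 ± 119.5 CPM at 3 h (log2 fold change 0.50 ± 0.05, edgeR adjusted p = 2.9e-08). COL22A1 had counts of 12, 17, 18 and 35 against 1, 2, 2 and 4 in DMSO (log2 fold change 2.95 ± 0.68, edgeR adjusted p = 0.0014). COL4A5 read 0.755, 1.08, 1.21 and 1.23 CPM, above every control (log2 fold change 1.57 ± 0.40, edgeR adjusted p = 0.0034). COL19A1 at 9 h read 8.43, 10.8, 12.5 and 12.7 CPM, below every control (log2 fold change -0.81 ± 0.11, edgeR adjusted p = 1.4e-06). COL2A1 differed by 0.15 ± 0.07 at 3 h (edgeR adjusted p = 0.095) and by -0.19 ± 0.05 at 9 h (edgeR adjusted p = 0.0086), the latter call lost without GSK205 9 h replicate 3 (adjusted p 0.057). Of 38 biosynthesis genes, 20 rose and none fell at 3 h, beside the background given above for that comparison.

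**Figure D3:**
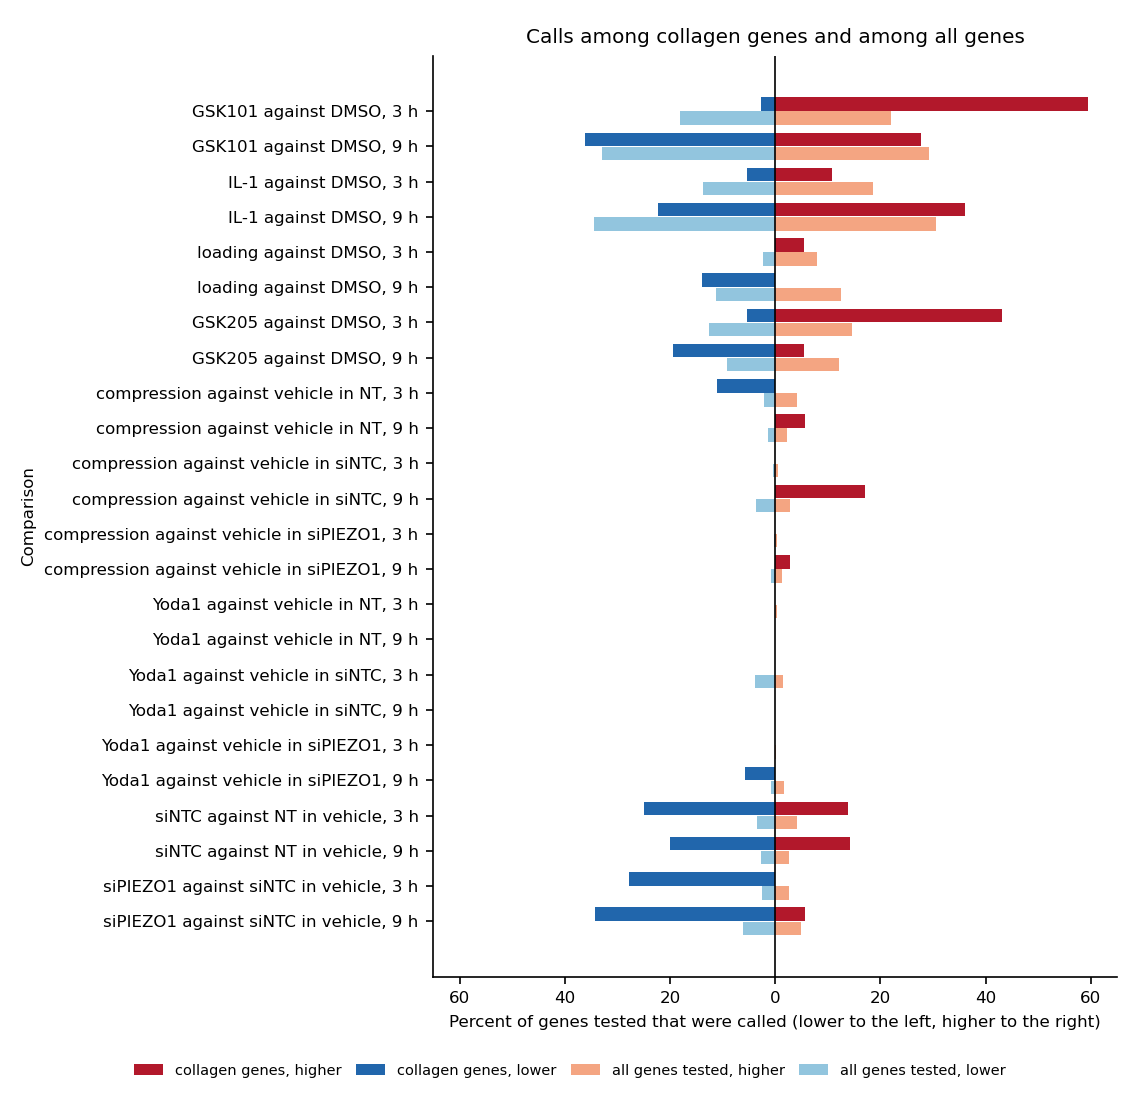
Percent of collagen genes tested (dark bars) and of all genes tested (pale bars) called higher, to the right, and lower, to the left, in each comparison (rows). The dark bars for GSK101 at 3 h stand for 22 higher and 1 lower of 37, and 5 of the 6 Yoda1 comparisons have no dark bar.

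Few collagens were called between loading with GSK205 and loading alone. At 3 h 1 of 37 members was higher and 2 were lower in loading with GSK205 than in loading (background 7.11% higher, 8.16% lower, 15.3% in all). These were COL9A1 (0.15 ± 0.05), COL19A1 (-0.44 ± 0.14) and COL27A1 (-0.44 ± 0.08). The call on COL9A1 was lost without loading replicates 1 or 2 or loading with GSK205 replicates 1 or 4 (adjusted p up to 0.13), and with library totals, where the value was 0.076 (edgeR adjusted p = 0.27). That on COL19A1 was lost without replicates 1 or 3 of either group (adjusted p up to 0.15). The count was 1 without loading 3 h replicate 1 and up to 4 without another library. At 9 h none of 36 was called by edgeR or DESeq2, and 1 had an unadjusted p under 0.05 (background 2.11% higher, 1.99% lower, 4.1% in all). Against GSK205 alone, loading with GSK205 had 5 members lower and none higher at 3 h (background 7.58% higher, 4.35% lower, 11.9% in all) and 4 higher and 4 lower at 9 h (background 8.82% higher, 9.2% lower, 18.0% in all). The 3 h count was 3 without loading+GSK205 3 h replicate 3, and the 9 h count was 5 without loading+GSK205 9 h replicate 2.

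The difference of the loading effect with and without GSK205 was tested as an interaction. At 3 h it called 3 members, all lower (background 0.894% higher, 1.35% lower, 2.25% in all): COL9A3 (log2 fold change -0.37 ± 0.07, edgeR adjusted p = 0.0062), COL11A2 (-0.30 ± 0.08) and COL15A1 (-0.26 ± 0.07). The calls on COL11A2 and COL15A1 were lost in 13 and 11 of 16 fits without 1 library and under most other settings, which left 1 member; without DMSO 3 h replicate 1 there were 7 calls and without loading 3 h replicate 4 there were 5. At 9 h it called 4, all higher (background 2.22% higher, 2.41% lower, 4.64% in all): COL19A1 (log2 fold change 1.02 ± 0.15, edgeR adjusted p = 9.4e-05), COL8A1 (log2 fold change 0.60 ± 0.09, edgeR adjusted p = 1.0e-04), COL25A1 (0.37 ± 0.10) and COL12A1 (0.29 ± 0.07). For COL19A1 the 9 h libraries with both read 11.6, 13.3, 14.6 and 16.0 CPM. The 9 h means were 19.3 ± 0.779 CPM in DMSO, 12.0 ± 0.597 with loading, 11.09 ± 1.96 with GSK205 and 13.9 ± 1.87 with both. The call on COL25A1 was lost without DMSO 9 h replicate 1 or loading 9 h replicate 2 (adjusted p up to 0.052).

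Collagens also differed between 3 h and 9 h in constructs without a stimulus. The 2 times are separate libraries, so time and the handling at each time cannot be told apart. In DMSO 12 of 38 members were lower at 9 h than at 3 h and none was higher, over a background of 10.4% higher, 11.8% lower, 22.2% in all. They were 4 of the cartilage type, 5 other fibrillar, 2 fibril-associated and 1 network collagen. COL2A1 fell from 55589.8 ± 7075 to 44087 ± 1579.5 CPM (log2 fold change -0.33 ± 0.06, edgeR adjusted p = 8.2e-05; -0.20 with library totals), and COL27A1 fell too (-0.40 ± 0.07 on the log2 scale). The count was 7 without DMSO 3 h replicate 4, 7 in a fit of these groups alone, and with library totals (a shift of 0.13 in the median) 1 rose and 3 fell. In NT vehicle constructs 8 of 38 rose and 3 fell (background 8.01% higher, 8.1% lower, 16.1% in all). COL25A1 read 7.91, 8.94, 10.6 and 10.6 CPM at 3 h and 30.3, 31.1, 32.1 and 34.7 at 9 h (log2 fold change 1.75 ± 0.15, edgeR adjusted p = 1.9e-15), and COL1A2 (0.79 ± 0.16), COL3A1 (0.61 ± 0.14) and COL9A1 (0.76 ± 0.14) rose, while COL8A1 fell (-0.64 ± 0.17). COL2A1 differed by -0.24 ± 0.10 (edgeR adjusted p = 0.090). The 2 experiments are each compared with their own controls.

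In the PIEZO1 experiment the siRNAs are the designed sequences on which the transfection comparisons rest. The labels give 3 siRNAs against PIEZO1, printed 5′ to 3′ as given.
siPIEZO1a: cagcgagaucucgcacuccauc
siPIEZO1b: uacgaccugcugcagcuccug
siPIEZO1c: acccgcuggccaugcaguucuu
They are 22, 21 and 22 bases long. The target gene itself was not called lower in vehicle constructs. At 3 h PIEZO1 read 4.82, 5.501, 5.68 and 6.67 CPM in NT, 3.71, 5.11, 6.75 and 6.98 in siNTC and 4.17, 4.62, 4.98 and 5.13 in siPIEZO1. Its 9 h libraries read 4.13, 4.18, 4.38 and 5.33 in NT, 3.76, 5.31, 6.45 and 6.55 in siNTC and 2.26, 2.78, 4.26 and 4.53 in siPIEZO1. The groups overlapped at both times. The log2 fold change of siPIEZO1 over siNTC was -0.24 ± 0.19 at 3 h (edgeR adjusted p = 0.58) and -0.66 ± 0.23 at 9 h (edgeR adjusted p = 0.062). With Yoda1, PIEZO1 read 4.16 to 5.62 CPM in siPIEZO1 and 5.74 to 9.34 in siNTC at 3 h. At 9 h these were 3.69 to 4.55 and 5.26 to 7.21, and neither time had overlap. With compression the means were 4.71 and 6.00 at 3 h and 4.67 and 7.10 at 9 h, with overlapping groups. These differences with Yoda1 or compression were not tested. Because PIEZO1 was not called lower in vehicle, each direction below is that of the libraries labelled siPIEZO1.

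In the libraries labelled siPIEZO1, 9 collagens were lower than in siNTC at both times, among them 5 of 7 other fibrillar collagens. At 3 h 10 of 36 members fell and none rose (background 2.54% higher, 2.53% lower, 5.07% in all). At 9 h 2 of 35 rose and 12 fell (background 4.81% higher, 6.03% lower, 10.8% in all). Called lower at both times were 9 members: COL1A1, COL1A2, COL3A1, COL5A1, COL5A2, COL8A1, COL8A2, COL11A1 and COL12A1. Of 7 other fibrillar collagens 5 fell at each time, with medians of -0.91 at 3 h and -1.01 at 9 h. Of the network collagens 2 of 10 fell and none rose at 3 h (COL8A1 and COL8A2; median -0.10), and 2 of 9 fell and 1 rose (COL6A2) at 9 h (median 0.20). The siPIEZO1 vehicle 3 h replicate 1 stood apart, with a collagen share of 0.679% and the lowest COL3A1, and without it 9 members fell and none rose. COL2A1 differed by -0.30 ± 0.10 at 3 h (edgeR adjusted p = 0.091) and fell at 9 h (log2 fold change -0.32 ± 0.09, edgeR adjusted p = 0.012), a call lost without siNTC vehicle 9 h replicate 2 (adjusted p 0.059) and with library totals.

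Collagens also differed between cells given the control siRNA and non-transfected cells. No group was transfected without an siRNA, so the siRNA and the transfection itself cannot be told apart. In siNTC against NT vehicle 5 of 36 members rose and 9 fell at 3 h (background 4.15% higher, 3.39% lower, 7.53% in all), and 5 of 35 rose and 7 fell at 9 h (background 2.67% higher, 2.63% lower, 5.3% in all). Higher at both times were COL6A1, COL6A2, COL6A3, COL15A1 and COL27A1, and lower at both times were COL1A2, COL3A1, COL5A2, COL8A1, COL8A2, COL10A1 and COL14A1. The calls on COL14A1 at 3 h and on COL27A1 and COL1A2 at 9 h were lost in 4, 5 and 4 of 8 fits without 1 library, with adjusted p up to 0.064, 0.16 and 0.091. COL6A3 went from 483 ± 46.2 to 999.6 ± 118 CPM at 3 h (log2 fold change 1.05 ± 0.11, edgeR adjusted p = 2.4e-08). COL10A1 went from 26.8 ± 1.24 to 10.8 ± 1.59 (log2 fold change -1.32 ± 0.22, edgeR adjusted p = 4.0e-05). COL2A1 fell at 3 h (log2 fold change -0.49 ± 0.10, edgeR adjusted p = 0.0012) and differed by -0.19 ± 0.09 at 9 h (edgeR adjusted p = 0.25). The siNTC libraries serve in both comparisons, so their values are given side by side below.

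**Figure D4:**
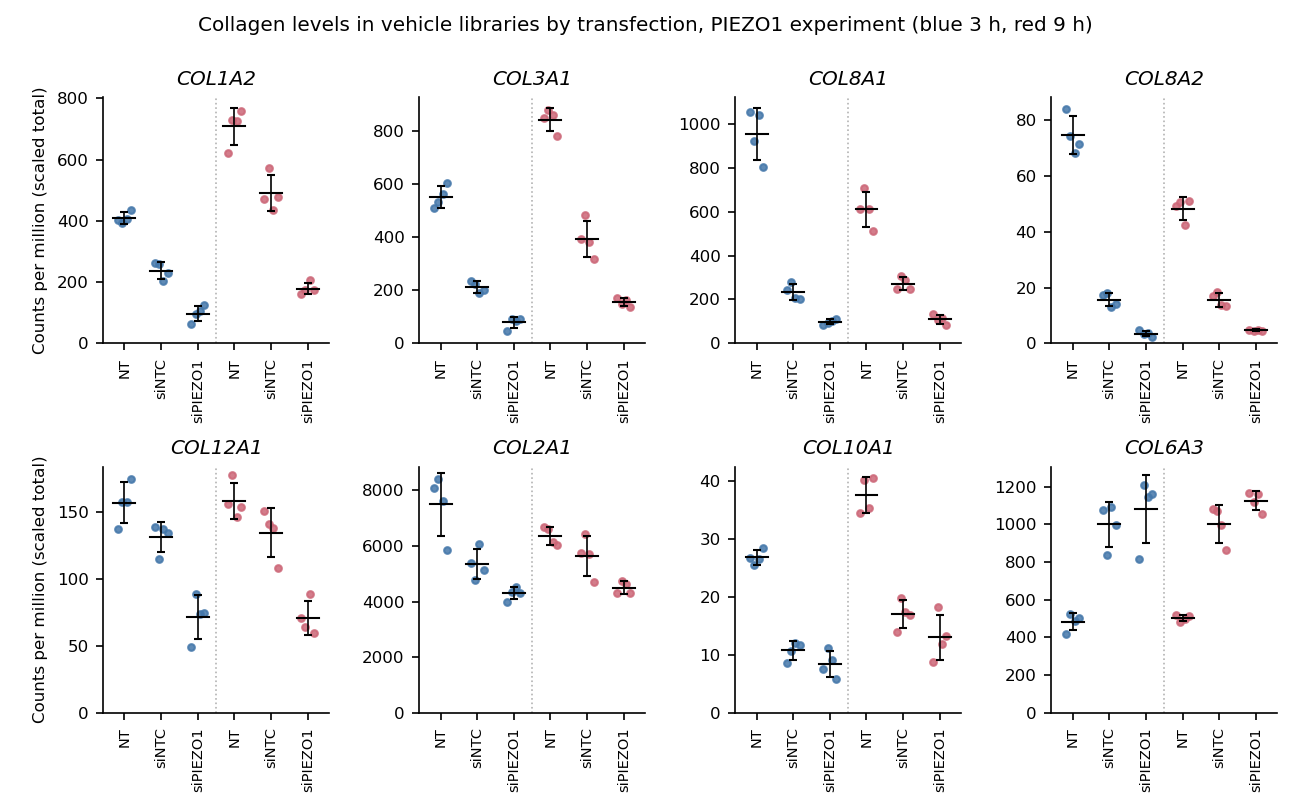
CPM of 8 collagen genes in each vehicle library of the PIEZO1 experiment (points; lines, group mean and SD; linear axes from 0) by transfection state at 3 h (blue) and 9 h (red). COL8A2 at 3 h lies at 68.4 to 84.1 CPM in NT, 13.2 to 18.2 in siNTC and 2.27 to 4.81 in siPIEZO1, without overlap.

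COL8A2 (ENSSSCG00000033641, chromosome 6, 92246047 to 92272046) encodes a short-chain collagen of hexagonal networks. At 3 h it read 68.4, 71.6, 74.3 and 84.1 CPM in NT, 13.2, 14.03, 17.2 and 18.2 in siNTC and 2.27, 3.51, 3.61 and 4.81 in siPIEZO1. The log2 fold changes were -2.25 ± 0.21 for siNTC over NT (edgeR adjusted p = 6.7e-10) and -2.12 ± 0.22 for siPIEZO1 over siNTC (edgeR adjusted p = 1.2e-08). By 9 h the level was 42.3, 49.1, 50.7 and 51.2 CPM in NT, 13.3, 13.7, 16.8 and 18.6 in siNTC and 4.42, 4.54, 4.95 and 4.99 in siPIEZO1. No library of one state overlapped another state at either time. Its partner COL8A1 (ENSSSCG00000011973, chromosome 13, 159216138 to 159374718) read 801, 923, 1040.1 and 1052 CPM in NT, 204, 208, 244 and 278 in siNTC and 85.8, 91.9, 103 and 111 in siPIEZO1 at 3 h. At 9 h it read 509.8, 613, 614 and 705 CPM in NT, 247, 247, 289 and 306 in siNTC and 84.2, 109, 117 and 132 in siPIEZO1. The step from siNTC to siPIEZO1 was -1.24 ± 0.15 at 3 h and -1.29 ± 0.17 at 9 h (edgeR adjusted p = 2.9e-07 and 1.9e-06).

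The fibrillar chains of types I and III had the same order. COL3A1 read 509.5, 533, 562 and 603 CPM in NT, 189.8, 199.97, 224 and 236 in siNTC and 48.5, 85.1, 92.5 and 93.3 in siPIEZO1 at 3 h (siPIEZO1 over siNTC, log2 fold change -1.40 ± 0.15, edgeR adjusted p = 5.3e-08). The 9 h values were 779, 849.8, 859 and 879 CPM in NT, 318, 383, 393 and 482 in siNTC and 138, 150.2, 165 and 169 in siPIEZO1 (log2 fold change -1.33 ± 0.12, edgeR adjusted p = 5.5e-10). COL1A2 (ENSSSCG00000015326, chromosome 9, 74174484 to 74210407), a chain of type I collagen, read 392, 403, 406 and 436 CPM in NT, 204, 229, 258 and 261 in siNTC and 63.5, 96.6, 106 and 124 in siPIEZO1 at 3 h (log2 fold change -1.27 ± 0.16, edgeR adjusted p = 9.4e-07). Its 9 h libraries read 622, 727, 728 and 758 CPM in NT, 437, 471, 477 and 574 in siNTC and 162, 173, 174 and 206 in siPIEZO1 (log2 fold change -1.45 ± 0.15, edgeR adjusted p = 1.0e-08). In neither gene did any 2 states overlap. COL1A1, the other chain of type I collagen, went from 162 ± 20.1 to 76.0 ± 26.1 CPM at 3 h (log2 fold change -1.07 ± 0.25, edgeR adjusted p = 0.0077). COL12A1 read 115, 134, 138 and 139 CPM in siNTC and 49.0, 74.1, 74.9 and 88.9 in siPIEZO1 at 3 h, without overlap.

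Other genes moved with these collagens. Markers of fibroblasts and synovium summed to 1644 ± 60.9 CPM of the plain total in NT, 1030.4 ± 78.0 in siNTC and 628 ± 37.96 in siPIEZO1 at 3 h, and 4 of the 9 tested were lower in siPIEZO1 than in siNTC at 3 h and 5 of 9 at 9 h. Of that list MFAP5 and PI16, at 0.05 and 0.30 CPM in NT vehicle at 3 h, were near 0. Chondrocyte markers summed to 26218 ± 2000.3, 21555 ± 637 and 14187 ± 2743, with 4 of 12 lower in siPIEZO1 at each time. COMP alone made up 21906 CPM of the sum in NT at 3 h, so the sum mostly follows that gene. The part of either list in the collagen results was not tested. Of 39 biosynthesis genes none rose and 11 fell in siPIEZO1 at 3 h (background 2.54% higher, 2.53% lower, 5.07% in all), with the cross-linking enzyme LOX at -1.35 ± 0.14, the C-proteinase enhancer PCOLCE at -1.35 ± 0.30, ADAMTS2 at -1.06 ± 0.14 and the collagen-binding SPARC at -0.74 ± 0.08. At 9 h 3 of 38 rose and 14 fell (background 4.81% higher, 6.03% lower, 10.8% in all). In siNTC against NT, 3 rose and 9 fell at 3 h (background 4.15% higher, 3.39% lower, 7.53% in all), with LOXL1 at -1.77 ± 0.23.

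A single compression to 80% lowered some collagens at 3 h and raised some at 9 h in non-transfected cells. At 3 h none of 36 members rose and 4 fell (background 4.18% higher, 2.09% lower, 6.27% in all), and at 9 h 2 of 35 rose and none fell (background 2.15% higher, 1.36% lower, 3.51% in all). The 3 h count was 2 without NT vehicle 3 h replicate 2, 7 with DESeq2 and 8 in a fit of the 2 groups alone. The 9 h count was 1 without any of NT vehicle 9 h replicates 2, 3 and 4 and NT compression 9 h replicates 2, 3 and 4, and 4 without NT compression 9 h replicate 1. In siNTC none was called at 3 h (edgeR; 3 at an unadjusted p under 0.05, and none by DESeq2), and 6 of 35 rose at 9 h (background 2.77% higher, 3.65% lower, 6.43% in all), 4 of them cartilage collagens. In siPIEZO1 none was called at 3 h (edgeR; 5 at an unadjusted p under 0.05, and none by DESeq2), and 1 rose at 9 h (background 1.34% higher, 0.833% lower, 2.18% in all). The backgrounds at 3 h were 0.584% higher, 0.327% lower, 0.911% in all, in siNTC and 0.393% higher, 0.207% lower, 0.6% in all, in siPIEZO1.

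COL27A1 had the largest called change in NT at each time. At 3 h NT vehicle read 76.3, 86.7, 86.9 and 87.6 CPM and NT compression 45.9, 46.8, 56.4 and 57.9, without overlap (log2 fold change -0.71 ± 0.10, edgeR adjusted p = 1.9e-06). At 9 h vehicle read 82.9, 85.6, 87.1 and 87.7 and compression 101.2, 144, 149 and 155, all higher (log2 fold change 0.67 ± 0.10, edgeR adjusted p = 8.6e-05). The change of the effect between the times was 1.38 ± 0.13 (edgeR adjusted p = 9.9e-12). In siNTC at 9 h vehicle read 98.3, 101.1, 114 and 123 and compression 155, 162, 166 and 170.5 (log2 fold change 0.58 ± 0.10, edgeR adjusted p = 0.00037). In siPIEZO1 at 9 h vehicle read 115, 119, 131 and 132 and compression 121, 134, 137 and 156, with overlapping groups (log2 fold change 0.14 ± 0.10, edgeR adjusted p = 0.63). The interaction of PIEZO1 siRNA and compression for COL27A1 at 9 h was -0.44 ± 0.14 and was not called (edgeR adjusted p = 0.099).

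**Figure D5:**
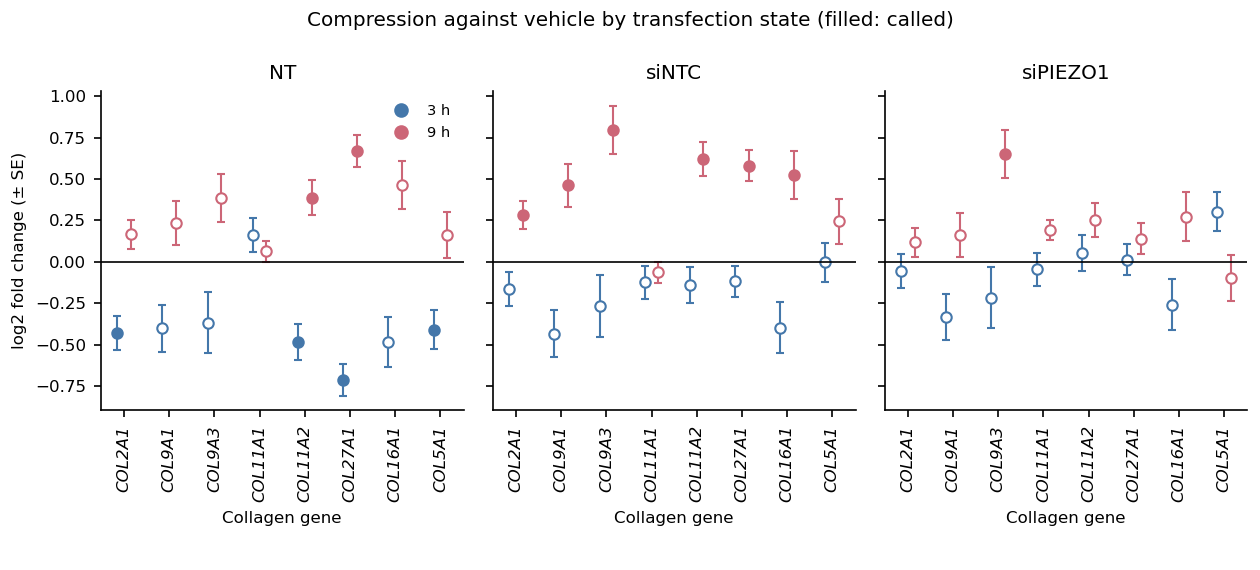
Log2 fold change of compression over vehicle (points; bars, standard error; filled where called) of 8 collagen genes (x axis) in NT, siNTC and siPIEZO1 cells at 3 h (blue) and 9 h (red). COL27A1 in NT is at -0.71 at 3 h and 0.67 at 9 h.

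COL2A1 and COL11A2 also fell at 3 h in NT cells. COL2A1 read 5867, 7608, 8096 and 8389.9 CPM in vehicle and 4953, 5618, 5663 and 6188 after compression at 3 h, with overlapping groups (log2 fold change -0.43 ± 0.10, edgeR adjusted p = 0.0076). This call was lost without NT vehicle 3 h replicate 2 (adjusted p 0.060). At 9 h vehicle read 6015, 6157, 6596 and 6662 and compression 6774, 7044, 7216 and 7660.3, all higher but not called (log2 fold change 0.17 ± 0.09, edgeR adjusted p = 0.33). COL11A2 fell from 239 ± 29.6 to 172 ± 16.3 CPM at 3 h (log2 fold change -0.48 ± 0.11, edgeR adjusted p = 0.0048). At 9 h it rose (log2 fold change 0.39 ± 0.10, edgeR adjusted p = 0.027), a call lost without any of replicates 2, 3 and 4 of either group (adjusted p up to 0.14) and in a fit of the 2 groups alone. COL5A1 at 3 h (-0.41 ± 0.12) was lost without any of NT vehicle replicates 1, 2 and 3 and NT compression replicates 1, 2 and 4 (adjusted p up to 0.16).

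The change of the compression effect from 3 h to 9 h in NT was called for 9 of 38 members, all toward higher (background 4.63% higher, 4.58% lower, 9.21% in all): 4 cartilage, 3 other fibrillar, 1 fibril-associated and 1 network collagen. Among them were COL2A1 (log2 fold change 0.59 ± 0.14, edgeR adjusted p = 0.0025) and COL11A2 (log2 fold change 0.87 ± 0.16, edgeR adjusted p = 6.7e-05). COL1A1 (1.04 ± 0.35), COL9A3 (0.75 ± 0.24) and COL6A1 (0.70 ± 0.22) were lost in 13, 11 and 10 of 16 fits without 1 library, with adjusted p up to 0.13, 0.11 and 0.16. The count fell to 4 or 5 in 8 of the 16 such fits, those without NT vehicle 3 h replicates 2 or 3, NT vehicle 9 h replicates 3 or 4, NT compression 3 h replicates 2 or 4, and NT compression 9 h replicates 2 or 3.

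In siNTC cells at 9 h COL9A3 rose most, from 17.1 ± 2.65 to 29.7 ± 2.22 CPM (log2 fold change 0.80 ± 0.15, edgeR adjusted p = 0.0013). In siPIEZO1 it was the only member called, from 19.1 ± 1.81 to 29.9 ± 5.81 (log2 fold change 0.65 ± 0.15, edgeR adjusted p = 0.0080), and no member was called without siPIEZO1 compression 9 h replicate 3 or siPIEZO1 vehicle 9 h replicate 4, and 2 were without siPIEZO1 vehicle 9 h replicate 3. COL9A3 shares 323 annotated bases with TCFL5. COL11A2 rose in siNTC (0.62 ± 0.10). COL2A1 read 4694, 5725, 5732 and 6430.3 CPM in vehicle and 6194, 6575, 7308 and 7354 after compression, with overlapping groups (log2 fold change 0.28 ± 0.09, edgeR adjusted p = 0.043); the call was lost without any of vehicle replicates 1, 3 and 4 and compression replicates 2, 3 and 4 (adjusted p up to 0.24). The siNTC count was 3 without siNTC compression 9 h replicate 3 and without siNTC vehicle 9 h replicates 3 or 4, and up to 8 without another library. Of 38 biosynthesis genes at 9 h 6 rose and 2 fell in NT (background 2.15% higher, 1.36% lower, 3.51% in all), with P4HA3 at 1.26 ± 0.24 and the collagen chaperone SERPINH1 at 1.01 ± 0.24, and 3 rose and 7 fell in siNTC (background 2.77% higher, 3.65% lower, 6.43% in all), with SERPINH1 at 1.23 ± 0.24.

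Whether the PIEZO1 siRNAs changed the response of collagens to compression was tested as an interaction against siNTC. No member was called at 3 h (edgeR and DESeq2; 1 at an unadjusted p under 0.05; background 0.0% higher, 0.0% lower, 0.0% in all) or at 9 h by edgeR (5 at an unadjusted p under 0.05; 1 by DESeq2; background 0.999% higher, 0.086% lower, 1.09% in all). The interaction for COL2A1 was 0.11 ± 0.15 at 3 h and -0.16 ± 0.12 at 9 h. A call in siNTC without one in siPIEZO1 is thus not a shown difference. Leaving out siPIEZO1 vehicle 9 h replicate 3 gave 1 call at 9 h.

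Few genes of any kind were called after the PIEZO1 agonist Yoda1 (0.0% to 5.4% of all genes tested), and almost no collagen was. The member counts below are small and are given beside those shares. Whether they differ from those shares was not tested. In NT none was called at 3 h (edgeR and DESeq2; 7 at an unadjusted p under 0.05; background 0.338% higher, 0.0709% lower, 0.409% in all) or at 9 h (edgeR and DESeq2; 0 at an unadjusted p under 0.05; background 0.0% higher, 0.0% lower, 0.0% in all). In siNTC none was called by edgeR at 3 h (5 at an unadjusted p under 0.05; 1 by DESeq2; background 1.47% higher, 3.93% lower, 5.4% in all) or 9 h (2 at an unadjusted p under 0.05; 0 by DESeq2; background 0.0% higher, 0.0% lower, 0.0% in all). Without siNTC Yoda1 3 h replicate 4 there was 1 call at 3 h. In siPIEZO1 none was called at 3 h (edgeR and DESeq2; 3 at an unadjusted p under 0.05; background 0.207% higher, 0.0546% lower, 0.262% in all), and 2 of 35 fell at 9 h (background 1.7% higher, 0.838% lower, 2.54% in all). These were COL8A2, which read 4.42, 4.54, 4.95 and 4.99 CPM in vehicle and 1.46, 1.50, 2.26 and 3.29 with Yoda1 (log2 fold change -1.14 ± 0.18, edgeR adjusted p = 0.0014), and COL5A1 (log2 fold change -0.51 ± 0.14, edgeR adjusted p = 0.035). The COL8A2 groups did not overlap. Neither was called in a fit of the 2 groups alone, and COL5A1 was lost without any of replicates 2, 3 and 4 of either group.

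COL2A1 with Yoda1 differed from vehicle by -0.23 ± 0.10 in NT at 3 h (edgeR adjusted p = 0.33), by 0.09 ± 0.10 in siNTC and by -0.10 ± 0.10 in siPIEZO1. At 9 h the differences were -0.02 ± 0.09, -0.15 ± 0.09 and -0.27 ± 0.09. None was called. The interaction of PIEZO1 siRNA and Yoda1 called no member at 3 h (edgeR and DESeq2; 1 at an unadjusted p under 0.05; background 0.835% higher, 0.104% lower, 0.938% in all) or 9 h (edgeR and DESeq2; 5 at an unadjusted p under 0.05; background 0.00537% higher, 0.0215% lower, 0.0269% in all), and the change of the Yoda1 effect in NT between the times called none (edgeR and DESeq2; 1 at an unadjusted p under 0.05; background 0.0347% higher, 0.0644% lower, 0.099% in all). The 2 agonists differed in target, dose and experiment, so GSK101 and Yoda1 are not compared.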

How the data were processed

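RNA-seq of 120 libraries was used as deposited: 1 table of whole-number gene counts. Per the submitters' processing notes, Trim Galore, STAR, HTSeq and Sscrofa11.1 were used; the sources used here give no versions, strand setting or annotation release. Of 32388 lines, 481 repeated lines of an identifier, with equal counts, were removed, which left 31907. The counts were not normalized by the authors. Low counts were often even (70.5% of counts from 1 to 20 in the TRPV4 libraries, 55.4% in the PIEZO1 libraries); the cause was not tested.

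The members and gene lists were chosen with earlier results of these data known. For each experiment and time 1 edgeR (4.0.16, limma 3.58.1, R 4.3.3) quasi-likelihood model was fitted to all groups, with TMM factors and filterByExpr (minimum count 10), on 16562, 16540, 18330 and 18611 genes (TRPV4 3 h, 9 h; PIEZO1 3 h, 9 h); comparisons between times used models of both times. P-values were adjusted by Benjamini-Hochberg over all genes tested, with a threshold of 0.05 and no minimum fold. The script was tested on simulated data. Alternatives were DESeq2 (1.42.0), RLE factors, no filter, the groups of a contrast alone, protein-coding genes only, a replicate block, 1 library left out and, chosen after seeing the data, library totals without TMM. Symbols missing from the table and positions came from RefSeq (Sscrofa11.1) or the gene name table.

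Named per comparison were COL2A1, at most 6 members called in each direction by size of change, the chains COL1A1, COL10A1 and COL11A1 in family comparisons, and at most 4 genes per direction of the biosynthesis and receptor lists; values in every library are given for COL2A1 and the 15 members with the largest called changes of at least 1 on the log2 scale. Depth limits genes of low level: with a few counts per library, only large ratios can be told from counting error.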

Additional observations from a re-analysis of the deposited data

Results flagged for a closer look

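Effects that differed between conditions or times by a direct test were found in 6 comparisons. The effect of loading differed with and without GSK205 for 3 members at 3 h and 4 at 9 h. The effect of a stimulus differed between 3 h and 9 h for 23 members with GSK101, 4 with loading, 9 with IL-1 and 9 with compression in NT cells. The change of the GSK101 effect was called toward lower at 9 h for 17 of its 23 members, with COL13A1 (-3.40 ± 0.80), COL19A1 (-2.41 ± 0.21), COL4A6 (-1.87 ± 0.55), COL4A5 (-1.70 ± 0.57) and COL27A1 (-1.09 ± 0.10) the 5 largest on the log2 scale. For IL-1 the largest were COL19A1 (-1.63 ± 0.20), COL17A1 (1.61 ± 0.35) and COL3A1 (1.59 ± 0.09).

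In 6 groups 1 library lay far from the other 3. These were COL13A1 in DMSO (0.0402 CPM at 3 h, 0.923 CPM at 9 h), COL19A1 in GSK101 at 3 h (8.25 CPM beside 3 libraries from 7.77 to 7.80), COL23A1 in GSK101 at 9 h (1.82 CPM), COL27A1 in NT vehicle at 3 h (76.3 CPM) and the collagen share of counts in siPIEZO1 vehicle at 3 h (0.679%). In all, 129 groups of 4 values were examined, and chance flags about 1 in 20.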

How the results depend on the processing

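Of 217 pairs of a named gene and a comparison, 187 were called. Direction and side of the threshold were kept for 214 with DESeq2, 211 with RLE factors, 203 without the filter, 195 with the groups of a contrast alone, 212 with protein-coding genes, 211 with the replicate block and 185 with library totals. Counts of called members that moved by more than 1.5 times were these; except where stated, the cause was not tested. With library totals: GSK101 at 3 h 12, IL-1 at 3 h 15, its change between times 18, the change of the loading effect 7, DMSO over time 4, compression in siPIEZO1 at 9 h 2. Loading at 3 h: 4 with DESeq2 and 0 with RLE factors, the groups alone, protein-coding genes, the block or library totals. Interaction of loading and GSK205 at 3 h: 6 with DESeq2 and 1 under each of the other 6. With the groups of a contrast alone, which has fewer libraries: loading with GSK205 against GSK205 at 3 h 9, compression in NT at 3 h 8, Yoda1 in NT and compression in siNTC at 3 h 1 each, Yoda1 in siPIEZO1 at 9 h 0, DMSO over time 7. With DESeq2: compression in NT at 3 h 7, Yoda1 in siNTC at 3 h 1, compression in siPIEZO1 at 9 h 2, siRNA by compression at 9 h 1. Without the filter the change of the loading effect had 2. The replicate block gave 2 for compression in siPIEZO1 at 9 h; replicate numbers do not pair the libraries (mean correlation of same-numbered libraries -0.0006 to 0.0089, and 5 of 24, 5 of 24, 12 of 36 and 15 of 36 libraries nearest their own number).

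With 1 library left out the counts ran from 0 to 3 for loading at 3 h, 1 to 4 for loading with GSK205 against loading at 3 h, 3 to 6 and 5 to 9 against GSK205 at 3 h and 9 h, 1 to 7 for their interaction at 3 h, 2 to 5 and 1 to 4 for compression in NT at 3 h and 9 h, 3 to 8 in siNTC and 0 to 2 in siPIEZO1 at 9 h, 0 to 1 for Yoda1 in siNTC at 3 h, 1 to 2 in siPIEZO1 at 9 h, 0 to 1 for siRNA by compression at 9 h, 7 to 14 for DMSO over time, 2 to 6 for the change of the loading effect and 4 to 9 for that of compression in NT.

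Signs turned in these cases; ranges are over fits without 1 library. COL2A1, loading at 3 h: -0.0089 to 0.14. COL2A1, loading with GSK205 against loading at 3 h: -0.051 with library totals, and -0.021 to 0.071. COL2A1, IL-1 at 3 h: -0.12 to 0.023. COL2A1, compression in siPIEZO1 at 3 h: 0.0014 with library totals. COL2A1, loading at 9 h, where the main value was near 0: -0.0020 with the groups alone, -0.019 with protein-coding genes, -0.054 with library totals, and -0.036 to 0.041. COL2A1, Yoda1 in NT at 9 h: -0.080 to 0.057. COL2A1, change of the loading effect: 0.0034 without the filter, and -0.10 to 0.042. With library totals COL9A3 after IL-1 at 3 h was -0.016, and the changes of the IL-1 effect were -0.032 for COL6A2 and -0.14 for COL16A1.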

Other observations

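The 5 collagen genes without a symbol in the count table were tested in the same models, where they passed the filter. COL9A2, the further chain of type IX collagen, rose after GSK101 at 3 h (log2 fold change 0.25 ± 0.05, edgeR adjusted p = 0.00014) and after GSK205 at 3 h (0.33 ± 0.05). It was the only one of the 5 called after compression: it fell in NT cells at 3 h, from 122 ± 12.5 to 96.7 ± 7.27 CPM (log2 fold change -0.34 ± 0.09, edgeR adjusted p = 0.021), and rose in siNTC cells at 9 h, from 98.5 ± 10.3 to 136 ± 5.52 CPM (log2 fold change 0.47 ± 0.09, edgeR adjusted p = 0.0014). COL4A1, the partner chain of COL4A2, rose after GSK101 at 3 h (0.46 ± 0.11) and fell in siNTC against NT (-1.01 ± 0.20) and in siPIEZO1 against siNTC (-0.87 ± 0.21) at 3 h. It shares 525 annotated bases with COL4A2. COL7A1, the anchoring fibril collagen, was lower at 9 h after GSK101 (-0.38 ± 0.11), IL-1 (-0.36 ± 0.10), loading (-0.34 ± 0.10) and GSK205 (-0.30 ± 0.11), which share the DMSO controls. These genes were chosen after their values were seen, and their results under other settings are not given here.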
